A study of Homo sapiens with 9 samples.

Results

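The 45 genes described here encode the hypoxia inducible factors (HIFs), the enzymes that sense oxygen, targets of the HIFs and enzymes of glycolysis. They were taken by gene symbol from a table of 20030 genes, and all 45 were found. They were followed in RNA sequencing libraries of 3 lines of human hepatocellular carcinoma (HCC) cells, 3 libraries per line and 9 in all. MHCC97L is the untreated parental line, an established HCC cell line. MHCC97L-Src was derived from it by rising doses of saracatinib, an inhibitor of the kinase Src, until it stably resisted 4 μmol/L, and MHCC97L-Oxa stably resists 2 μmol/L oxaliplatin, a platinum drug that damages DNA. The 3 lines grew in the same serum-containing medium. Each resistance is represented by 1 derived line, and no line passaged without a drug was analysed here, so the drug and the time in culture cannot be told apart. Whether the drugs were in the medium at harvest is not given in the sources used here.

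In well oxygenated cells the prolyl hydroxylases EGLN1 and EGLN3 mark the HIF alpha subunits HIF1A and EPAS1 (HIF2 alpha), and VHL then directs them to degradation. When oxygen is short the alpha subunits persist, pair with ARNT or ARNT2 and bind DNA at a short core motif near genes for blood vessel growth, matrix modification, mitophagy and glycolysis. This control acts largely on the protein, which RNA sequencing does not measure. HCC often has poorly oxygenated regions and high glycolysis.

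The libraries held 16970486 to 18209213 counts, and a floor of 3 counts corresponds to 0.165 to 0.177 CPM (counts scaled to the library total). The 45 genes had between 15 and 374141 counts in every library, so none was near this floor. The hepatocyte markers ALB, AFP and TTR had 0 counts in all 9 libraries and APOA1 had 0 to 4. SERPINA1, a further hepatocyte marker, had 1 count in each MHCC97L library. It had 22, 9 and 10 in those of MHCC97L-Src and 31, 14 and 14 in those of MHCC97L-Oxa. The epithelial keratins KRT8 and KRT18 had at least 22160 counts in each library. PTPRC and LYZ, which mark leukocytes, were at 0 in all libraries. Replicate 1 of MHCC97L stood apart. Its deviation from the mean of all libraries followed the GC content of the genes (Spearman rho of -0.782 over 12144 genes), against -0.256 to 0.698 in the other libraries. Correlations of log2 CPM between libraries of a line were 0.859 to 0.956 in MHCC97L, 0.969 to 0.987 in MHCC97L-Src and 0.984 to 0.990 in MHCC97L-Oxa.

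The 45 genes followed this deviation, as the plot of GC content against the level in MHCC97L replicate 1 shows. Of the 16 genes with a transcript under 45% GC, 14 were higher in replicate 1 than in the mean of replicates 2 and 3. Of the 24 genes at or over 50% GC, 20 were lower. The correlation with GC content was -0.745 over the 45 genes and -0.785 over 11943 tested genes, where genes share the same 3 libraries. The differences ran from -0.83 to 2.48 on the log2 scale. HIF1A (36.4% GC) and PLOD2 (34.4% GC) had among the lowest GC contents of the 45, and their differences were 1.77 and 2.30. Replicates 2 and 3 also differed from each other for these 2 genes, at 300 and 1536 counts of HIF1A and 345 and 1688 of PLOD2. Results against MHCC97L are therefore given also without replicate 1 and after a correction for GC content and gene length.

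**Figure D1:**
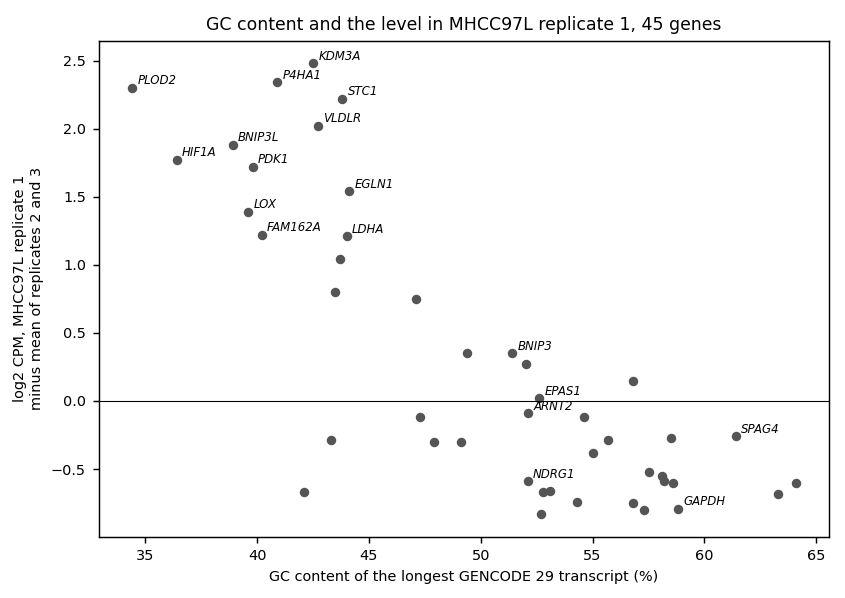
Log2 CPM in MHCC97L replicate 1 minus the mean of replicates 2 and 3 (y axis) against the GC content in percent of the longest transcript (x axis), with 1 point for each of the 45 genes. Genes under 45% GC lie mostly above 0, up to 2.48, and genes at or over 50% GC lie mostly below 0, down to -0.83.

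A short core to which HIF binds was searched only in the form ACGTG. The search covered both strands of the 250 bases before the most upstream RefSeq start of each gene (GRCh38.p14). ACGTG was present in 19 of the 37 genes that had such a window, or 51.4%, against 18.6% of 27305 windows of all genes and 23.5% of 9599 windows of tested genes. The longer palindrome CACGTG, which contains ACGTG and is shared by other factors, was present in 7 of the 37, or 18.9%, against 6.46% of all windows. No window was at hand for ARNT2, BNIP3L, LOXL2, NDRG1, SPAG4, STC1, VEGFA and VHL. Among the genes that differed between lines at an adjusted p under 0.05 in any comparison, 7 of 11 windows held ACGTG, and among the others 12 of 26. A match describes letters only and does not show that a factor was bound. The match nearest to the start is printed for the 7 genes that differed and for 2 glycolytic enzymes that did not, LDHA and PGK1, to show that both kinds of gene carry it. Each stretch runs 5′ to 3′ on the strand of the gene, with the motif in capitals, and CACGT is ACGTG read from the other strand.
BNIP3 (chr10:131982040-131982068, minus strand, 133 bases before the start): cgcacgcgccgcACGTGccacacgcaccc
ENO2 (chr12:6914450-6914478, plus strand, 118 bases before): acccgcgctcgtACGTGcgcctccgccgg
ANGPTL4 (chr19:8363909-8363937, plus strand, 234 bases before): ggaaagaagagtCACGTctcccacggttc
LOX (chr5:122078285-122078313, minus strand, 42 bases before): gtaactttgcaaACGTGccagaaagttta
P4HA1 (chr10:73096936-73096964, minus strand, 86 bases before): tgtgatcgagctCACGTagcgagggctgc
PLOD2 (chr3:146161314-146161342, minus strand, 146 bases before): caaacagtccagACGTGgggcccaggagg
BHLHE40 (chr3:4979276-4979304, plus strand, 149 bases before): cacagggtagaaCACGTagctccaaccca
LDHA (chr11:18394478-18394506, plus strand, 73 bases before): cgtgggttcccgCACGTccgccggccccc
PGK1 (chrX:78104053-78104081, plus strand, 183 bases before): aaacggaagccgCACGTctcactagtacc
Except for that of BNIP3, these stretches lie inside the outer bounds of the gene in GENCODE release 29, which for these genes starts further upstream than RefSeq.

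Each line was compared with each other line by edgeR's quasi-likelihood test over all genes kept, with Benjamini-Hochberg adjustment, and all 45 genes were tested in every comparison. Against MHCC97L, 8 of the 45 were higher in MHCC97L-Oxa at an adjusted p under 0.05 (ANGPTL4, ARNT2, BNIP3, EGLN3, ENO2, NDRG1, SPAG4 and VEGFA) and 0 were lower. Over all 12064 genes tested, 0.953% passed, 0.771% higher and 0.182% lower. In MHCC97L-Src, 4 of the 45 were higher (ARNT2, BNIP3, EGLN3 and SPAG4) and 0 were lower, where 2.13% of 12037 genes passed, 1.43% higher and 0.698% lower. Between the resistant lines the difference went 1 way. There, 11 of the 45 were lower in MHCC97L-Src than in MHCC97L-Oxa (ANGPTL4, BHLHE40, BNIP3, EPAS1, HIF1A, LOX, LOXL2, P4HA1, P4HA2, PLOD2 and VEGFA) and 0 were higher, where 4.64% of 11994 genes passed, 2.52% lower and 2.12% higher. With DESeq2's size factors in the same test, MHCC97L-Src had 5 higher and 1 lower. Beside the counts of 0, an unadjusted p under 0.05 by edgeR was reached by 1 lower gene in MHCC97L-Oxa, 5 lower genes in MHCC97L-Src and 1 higher gene between the resistant lines, and DESeq2's Wald test called 0, 3 and 0 of the 45 there. The share of all genes at an unadjusted p under 0.05 alone was not computed. It cannot be smaller than the shares with a fold threshold that follow. Unadjusted changes of more than 1 on the log2 scale (p under 0.05) comprised 12 higher genes (4.63% of all genes) and 1 lower gene (11.5%) in MHCC97L-Oxa, 8 higher (5.74%) and 4 lower (18.9%) in MHCC97L-Src, and 0 higher (1.49%) and 4 lower (2.52%) between the resistant lines. The study speaks of independent experiments, but the labels do not tie the libraries to separate cultures, so p-values measure the spread between these libraries. Both comparisons with MHCC97L share the same 3 MHCC97L libraries. An exact permutation test of 3 against 3 libraries cannot go below p = 0.1, so single genes were not tested that way.

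The median log2 fold change of the 45 genes was 0.52 in MHCC97L-Oxa against MHCC97L, beside -0.19 over all genes tested, with 36 of the 45 above 0 beside 39.2% of all genes. In MHCC97L-Src it was 0.37 beside -0.16, with 28 of the 45 above 0 beside 42.7%. Between MHCC97L-Src and MHCC97L-Oxa it was -0.39 beside -0.02, with 10 of the 45 above 0 beside 48.1%. The plot of levels in every library shows the 45 genes by role. In MHCC97L-Oxa, 27 of the 45 lay above all 3 MHCC97L libraries (19.1% of all genes did so) and 0 below (10.5%). In MHCC97L-Src, 13 lay above (18.3%) and 2, HIF1A and EPAS1, below (12.2%). Of the 45, 23 were lower in all MHCC97L-Src than in all MHCC97L-Oxa libraries (14.4%) and 1, CITED2, was higher (13.2%). As the samples are bulk RNA, fewer cells expressing a gene and less of its RNA per cell cannot be told apart.

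**Figure D2:**
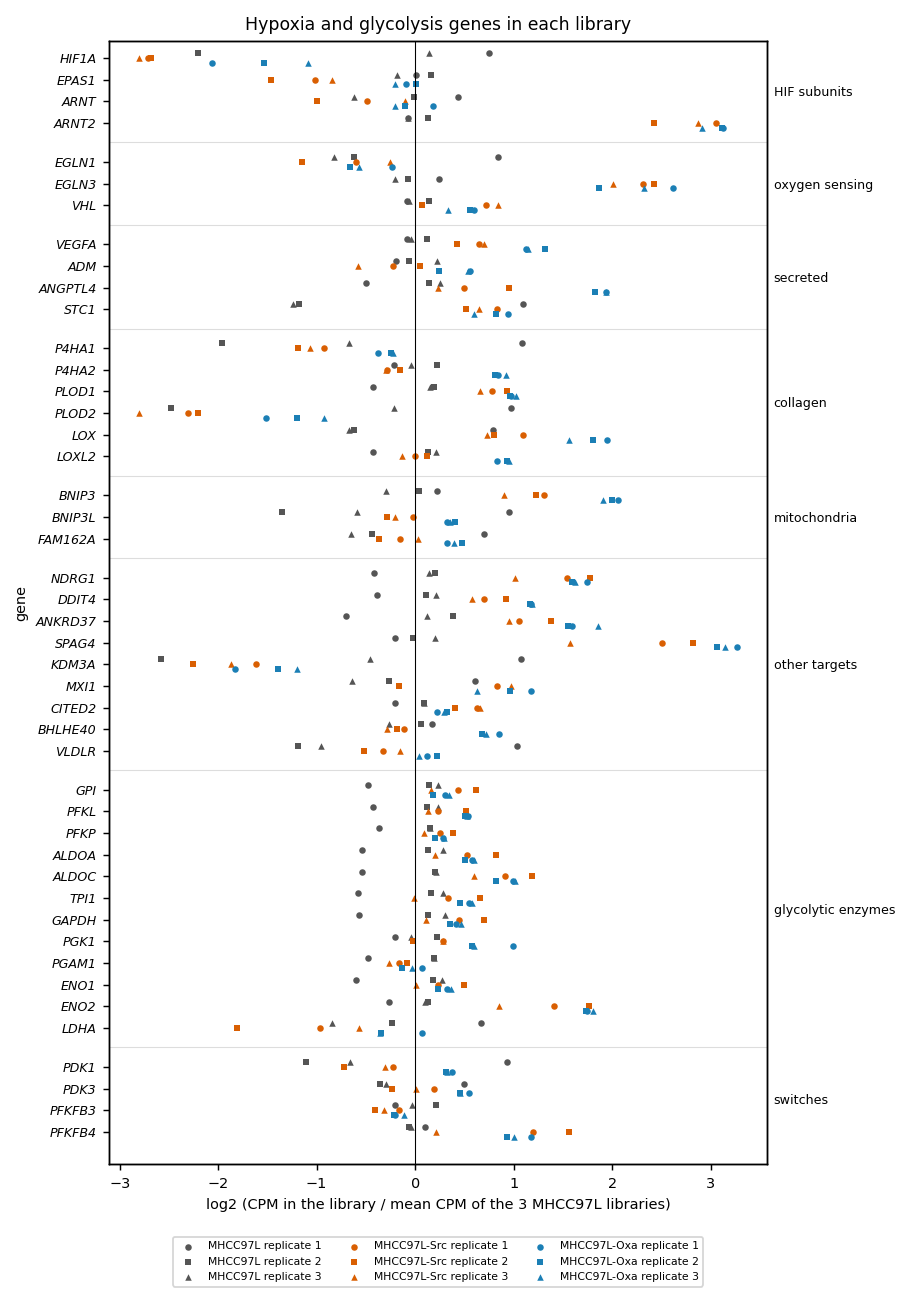
Level of each of the 45 genes in each of the 9 libraries, as log2 of the CPM over the mean CPM of the 3 MHCC97L libraries (x axis), with genes grouped by role (y axis). Colors mark the lines and symbols the replicates. ARNT2, EGLN3, SPAG4 and NDRG1 of both resistant lines lie right of all MHCC97L libraries, and the MHCC97L replicate 1 symbols lie apart from replicates 2 and 3 for many genes.

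The calls against MHCC97L depended on which libraries entered. Without MHCC97L replicate 1, 29 of the 45 were higher in MHCC97L-Oxa (11.9% of all genes) and 0 lower (6.60%), and 8 were higher in MHCC97L-Src (3.58%) and 1, EPAS1, lower (1.94%). Without MHCC97L replicate 2, 18 were higher in MHCC97L-Oxa (5.20% of all genes) and 3 lower (16.9%), and 8 were higher in MHCC97L-Src (5.62%) and 3 lower (22.2%). Without MHCC97L replicate 3 they were 0 in both comparisons (22 of all 12202 genes tested in MHCC97L-Src and 2 of 12175 in MHCC97L-Oxa). Without any 1 of the MHCC97L-Oxa libraries they were 0 (2 of all genes each time). Without MHCC97L-Src replicates 1, 2 and 3 in turn they were 0, 1 and 0 (69, 47 and 27 of all genes). Few of all genes were called in these fits, so these low counts are not particular to the 45 genes. After the GC and length correction, 23 were higher in MHCC97L-Oxa (6.51%) and 0 lower (6.49%), 12 were higher and 1 lower in MHCC97L-Src (5.53% and 5.17%), and 14 were lower and 0 higher in MHCC97L-Src than in MHCC97L-Oxa (5.17% and 4.52%). The genes called against MHCC97L in the full comparison were also called without MHCC97L replicate 1 and after the correction, in each line. A further 15 passed both without MHCC97L replicate 1 and after the correction in MHCC97L-Oxa, all higher (ALDOC, BHLHE40, BNIP3L, DDIT4, FAM162A, LOX, LOXL2, MXI1, P4HA2, PDK1, PDK3, PFKFB4, PLOD1, STC1 and VLDLR), and a further 4 higher genes did so in MHCC97L-Src (ENO2, LOX, NDRG1 and STC1). The share of all genes that passed both was not computed, so the size of these 2 lists has no background. Singly, the 2 settings called 11.9% and 6.51% of all genes higher in MHCC97L-Oxa, and 3.58% and 5.53% in MHCC97L-Src.

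**Figure D3:**
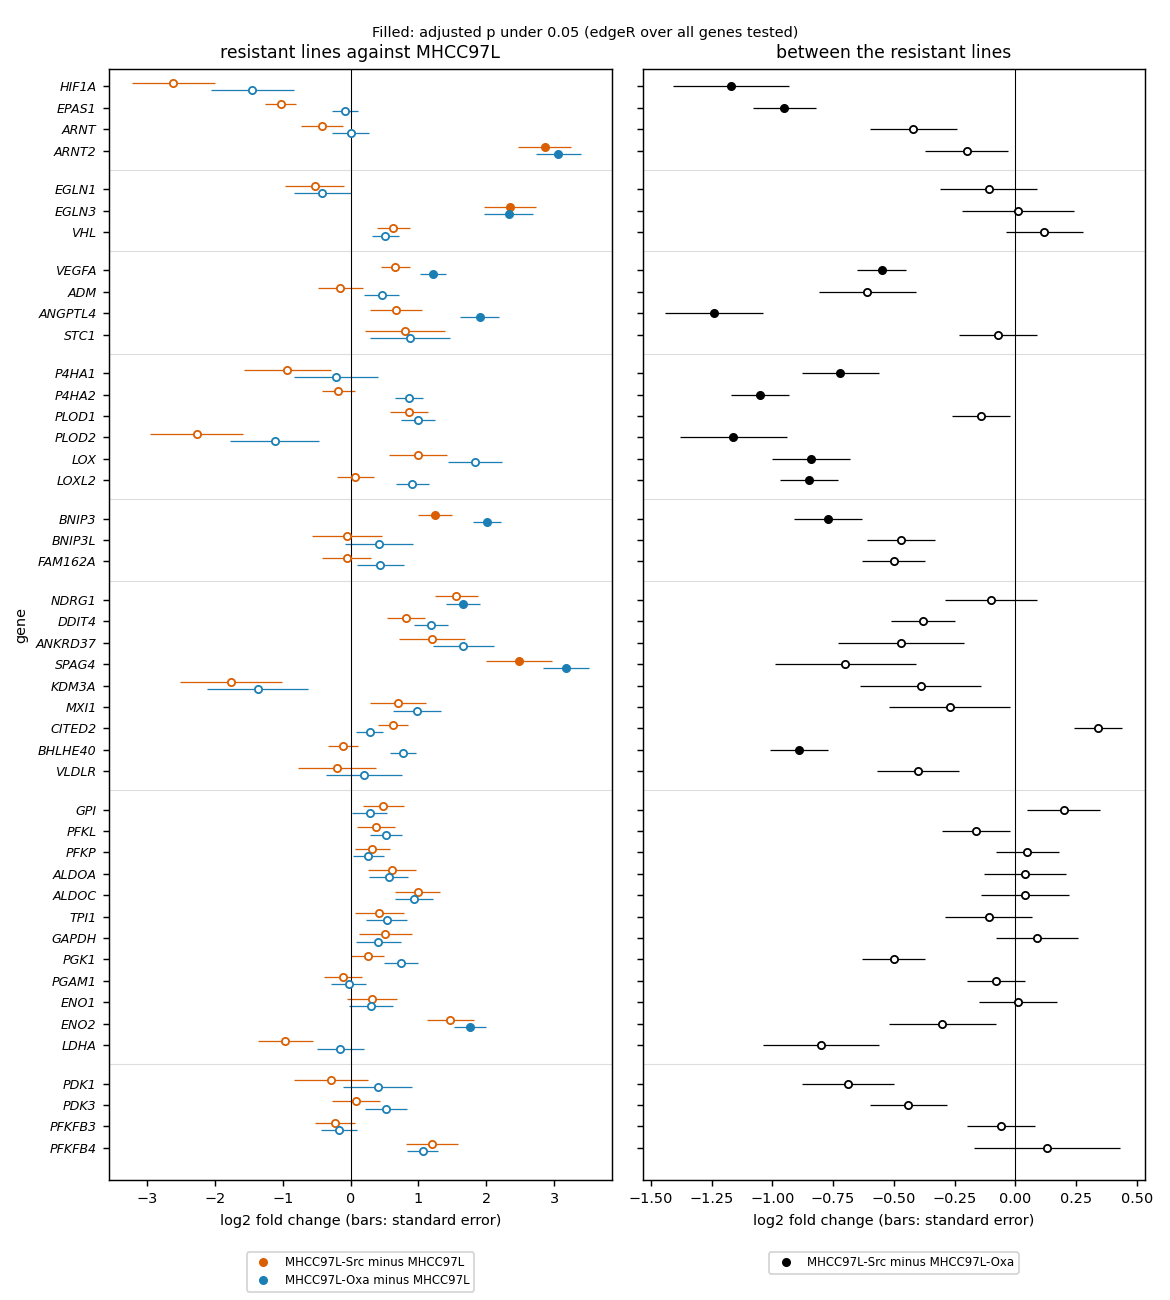
Log2 fold change (x axes) of each of the 45 genes, with the standard error as a bar, for both resistant lines against MHCC97L (left) and for MHCC97L-Src against MHCC97L-Oxa (right, on a narrower axis). Filled points have an adjusted p under 0.05 by edgeR. On the right all 11 filled points lie below 0, and on the left the filled points lie above 0.

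Among the HIF subunits, the RNA of both alpha subunits was lower in MHCC97L-Src than in MHCC97L-Oxa, while ARNT2, a partner subunit, was higher in both resistant lines than in MHCC97L. HIF1A (chr14:61695513-61748259, plus strand, GRCh38, GENCODE 29) had 2313, 300 and 1536 counts in MHCC97L replicates 1 to 3, 205, 206 and 196 in those of MHCC97L-Src, and 340, 481 and 649 in MHCC97L-Oxa. MHCC97L-Src lay below both other lines in every library, and MHCC97L-Oxa lay within the wide range of MHCC97L. In CPM, HIF1A was at 77.8 ± 57.4, 11.7 ± 0.507 and 27.3 ± 8.94 (mean ± SD, n = 3). Its log2 fold change between MHCC97L-Src and MHCC97L-Oxa was -1.17 ± 0.24 (SE, edgeR adjusted p = 0.0235). After the GC and length correction it was -0.78 (adjusted p = 0.0537), which no longer passed. This difference also failed with all 9 libraries in 1 fit (adjusted p = 0.763), by limma-trend (adjusted p = 0.0731 and 0.0569) and with the correction and the replicate block (adjusted p = 0.131). It passed with DESeq2's size factors, by DESeq2's Wald test, without a filter and with the block alone. Leaving out 1 library gave adjusted p from 0.00573 to 0.105 by edgeR. Against MHCC97L the log2 fold change of HIF1A was -2.61 ± 0.61 in MHCC97L-Src (adjusted p = 0.0721) and -1.45 ± 0.61 in MHCC97L-Oxa (adjusted p = 0.216), and neither passed in the full comparison. The call in MHCC97L-Src depended on the method, as it passed by DESeq2's Wald test (adjusted p = 0.00075), with DESeq2's size factors (adjusted p = 0.0446), without a filter on low counts (adjusted p = 0.0209), with all 9 libraries in 1 fit (adjusted p = 0.0198) and with the replicate block (adjusted p = 0.00033), and not by limma-trend on log2(FPKM + 1) (adjusted p = 0.258). Without MHCC97L replicate 2 HIF1A passed in both lines, at -3.02 (adjusted p = 0.000914) and -1.84 (adjusted p = 0.0126). Without MHCC97L replicate 1 these were -2.04 (adjusted p = 0.0529) and -0.83 (adjusted p = 0.41). The GC and length correction gave -1.14 (adjusted p = 0.0748) and -0.36 (adjusted p = 0.469).

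EPAS1 (chr2:46293667-46386703, plus strand), the other alpha subunit, had 8928, 9963 and 7971 counts in the MHCC97L libraries, 4324, 3106 and 4941 in those of MHCC97L-Src, and 8596, 9100 and 7788 in those of MHCC97L-Oxa. MHCC97L-Src was again the lowest line in every library, while MHCC97L and MHCC97L-Oxa overlapped. The log2 fold change was -0.95 ± 0.13 between MHCC97L-Src and MHCC97L-Oxa (adjusted p = 0.0031), and -0.98 after the correction (adjusted p = 0.000805). Against MHCC97L it was -1.03 ± 0.23 in MHCC97L-Src (adjusted p = 0.0629) and -0.08 ± 0.19 in MHCC97L-Oxa (adjusted p = 0.814). In MHCC97L-Src it passed without MHCC97L replicate 1 (-1.04, adjusted p = 0.0177) and after the correction (-1.10, adjusted p = 0.0048). On the FPKM scale, which allows for transcript length, HIF1A made up 16.8 ± 11.4% of the sum of HIF1A and EPAS1 in MHCC97L, against 6.44 ± 1.59% in MHCC97L-Src and 7.24 ± 2.33% in the oxaliplatin line, so EPAS1 had the larger share in all 3 lines.

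ARNT2 (chr15:80404350-80597937, plus strand), which can replace ARNT as the partner of the alpha subunits and is known mainly from the nervous system and kidney, had 58, 67 and 59 counts in MHCC97L. In MHCC97L-Src it had 495, 315 and 444, and MHCC97L-Oxa had 549, 537 and 461. All libraries of both resistant lines were above all MHCC97L libraries. ARNT2 was 7.28-fold higher in MHCC97L-Src (log2 2.86 ± 0.39, adjusted p = 0.0128) and 8.37-fold higher in MHCC97L-Oxa (log2 3.06 ± 0.33, adjusted p = 0.0117). Its share of the summed FPKM of ARNT and ARNT2 was 2.77 ± 0.991% in MHCC97L, against 20.7 ± 3.56% in MHCC97L-Src and 18.2 ± 1.78% in the oxaliplatin line. ARNT itself had 1287 to 2627 counts in the MHCC97L libraries, 934 to 1800 in those of MHCC97L-Src, and 1699 to 2277 in those of MHCC97L-Oxa, and did not pass the test in any comparison.

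Of the oxygen sensing genes, EGLN3 was higher in both resistant lines. EGLN3 (chr14:33924231-34462774, minus strand) encodes a prolyl hydroxylase that is itself a HIF target. It had 103, 83 and 77 counts in the MHCC97L libraries, 424, 448 and 349 in those of MHCC97L-Src, and 553, 322 and 438 in those of MHCC97L-Oxa. The resistant lines did not overlap with MHCC97L but overlapped with each other. It was higher by 2.35 ± 0.38 (log2) in MHCC97L-Src (adjusted p = 0.0214) and 2.33 ± 0.36 in MHCC97L-Oxa (adjusted p = 0.0325). EGLN1, the main oxygen sensor of most cells, had 512 to 1587, 385 to 740 and 571 to 779 counts in MHCC97L, MHCC97L-Src and MHCC97L-Oxa and passed in no comparison. EGLN3 was thus 21.9 ± 8.41% of the summed FPKM of EGLN1 and EGLN3 in MHCC97L, against 67.0 ± 11.0% in MHCC97L-Src and 63.9 ± 3.57% in the oxaliplatin line. VHL, the substrate receptor of the ubiquitin ligase for HIF alpha, had 3072 to 3608, 3275 to 5796 and 4117 to 5085 counts. The resistant lines overlapped for VHL, with a log2 difference of 0.12 ± 0.16 (adjusted p = 0.725), the largest positive or negative difference of this role.

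**Figure D4:**
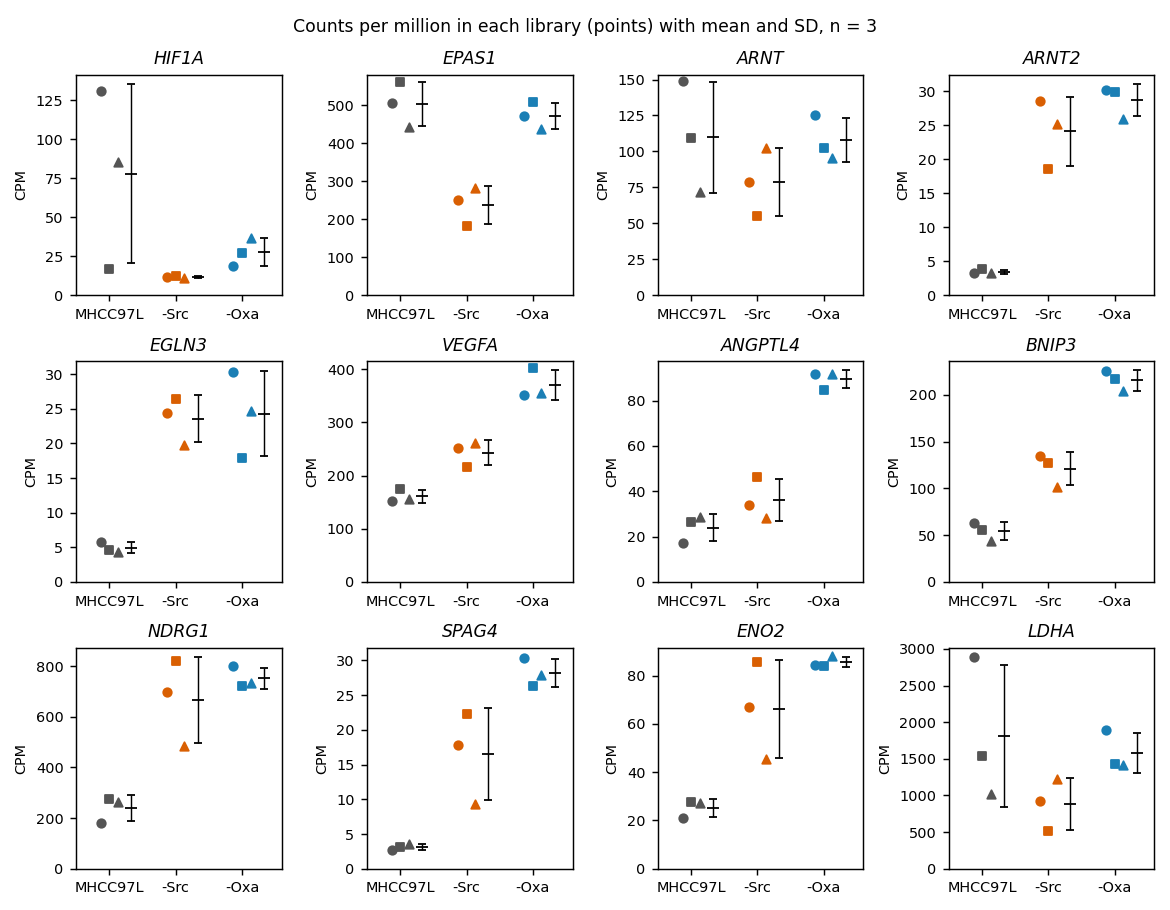
CPM (y axes) of 12 genes in each library, with points for libraries and bars for the mean and SD (n = 3) of each line (x axes). ARNT2, EGLN3, SPAG4, NDRG1 and ENO2 separate MHCC97L from both resistant lines, and BNIP3, VEGFA and ANGPTL4 separate MHCC97L-Oxa from MHCC97L-Src. HIF1A and LDHA spread widely within MHCC97L.

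Of the secreted factors, VEGFA and ANGPTL4 were highest in MHCC97L-Oxa, and all 4 factors had log2 fold changes above 0 there (median 1.04, range 0.46 to 1.90). VEGFA (chr6:43770184-43786487, plus strand), the central growth factor of blood vessels, had 2684, 3108 and 2806 counts in the MHCC97L libraries, 4379, 3670 and 4592 in those of MHCC97L-Src, and 6409, 7209 and 6317 in those of MHCC97L-Oxa. The 3 lines did not overlap, with MHCC97L-Src between the others. The log2 fold change of VEGFA was 1.21 ± 0.19 in MHCC97L-Oxa (adjusted p = 0.0325), 0.66 ± 0.21 in MHCC97L-Src (adjusted p = 0.112, not passed) and -0.55 ± 0.10 between the resistant lines (adjusted p = 0.0129). ANGPTL4 (chr19:8363289-8374373, plus strand), which inhibits lipoprotein lipase and is induced by hypoxia and fasting, had 300, 470 and 513 counts in the MHCC97L libraries, 586, 789 and 494 in those of MHCC97L-Src, and 1675, 1520 and 1628 in those of MHCC97L-Oxa. MHCC97L-Src overlapped with MHCC97L and lay below all MHCC97L-Oxa libraries. ANGPTL4 was 3.73-fold higher in MHCC97L-Oxa than in MHCC97L (log2 1.90 ± 0.29, adjusted p = 0.0323), and its log2 difference between MHCC97L-Src and MHCC97L-Oxa was -1.24 ± 0.20 (adjusted p = 0.0076). In MHCC97L-Src against MHCC97L it was 0.67 ± 0.38 (adjusted p = 0.255).

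STC1, a secreted glycoprotein, had 586, 122 and 118 counts in the MHCC97L libraries, 479, 376 and 429 in those of MHCC97L-Src, and 545, 492 and 419 in those of MHCC97L-Oxa. Replicate 1 of MHCC97L was above every other library and replicates 2 and 3 were below all of them. The log2 fold change in MHCC97L-Src was 0.80 ± 0.59 (adjusted p = 0.377) with replicate 1 and 1.93 without it (adjusted p = 0.0058). The GC and length correction gave 1.83 (adjusted p = 0.0148). In MHCC97L-Oxa the log2 fold change of STC1 was 0.87 ± 0.59 (adjusted p = 0.365), against 2.06 without MHCC97L replicate 1 (adjusted p = 0.00176) and 1.70 with the correction (adjusted p = 0.0122). ADM, the vasodilator adrenomedullin, had 537 to 730, 408 to 611 and 735 to 928 counts in the 3 lines. It passed in none of the full comparisons, and its MHCC97L-Oxa libraries lay above all others.

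The genes for collagen modification and cross-linking made up the role with the most differences between the resistant lines. Of its 6 genes, 5 were lower in MHCC97L-Src than in MHCC97L-Oxa (P4HA1, P4HA2, PLOD2, LOX and LOXL2), beside 2.52% of all genes. For all 6 the MHCC97L-Src libraries lay below the MHCC97L-Oxa libraries without overlap, beside 14.4% of all genes. The median log2 difference was -0.84, with a range of -1.16 to -0.14. P4HA1 and P4HA2 are the catalytic subunits of collagen prolyl hydroxylases. P4HA2 (chr5:132191838-132295315, minus strand) had 2034, 2770 and 2329 counts in the MHCC97L libraries, 1893, 2036 and 1908 in those of MHCC97L-Src, and 4348, 4202 and 4484 in those of MHCC97L-Oxa. MHCC97L-Oxa was above all other libraries, and MHCC97L-Src overlapped with MHCC97L at 1 library. The log2 difference between the resistant lines was -1.05 ± 0.12 (adjusted p = 0.0009), and -0.99 after the correction (adjusted p = 0.0152). P4HA1 had 1026, 125 and 311 counts in the MHCC97L libraries, 250, 204 and 231 in those of MHCC97L-Src, and 386, 414 and 417 in those of MHCC97L-Oxa. Its difference between the resistant lines was -0.72 ± 0.16 (adjusted p = 0.0308). It did not pass after the correction (-0.44, adjusted p = 0.106).

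PLOD2, a lysyl hydroxylase that sets the type of collagen cross-link, had 3756, 345 and 1688 counts in the MHCC97L libraries, 380, 401 and 274 in those of MHCC97L-Src, and 691, 846 and 1020 in those of MHCC97L-Oxa. The MHCC97L libraries reached from the range of MHCC97L-Src to above MHCC97L-Oxa. Between the resistant lines PLOD2 differed by -1.16 ± 0.22 on the log2 scale (adjusted p = 0.0161), and by -0.74 after the correction (adjusted p = 0.0935). Against MHCC97L it was -2.27 ± 0.68 in MHCC97L-Src (adjusted p = 0.105), and -1.38 without MHCC97L replicate 1 (adjusted p = 0.152). PLOD1, another lysyl hydroxylase, had 8735 to 13537, 18424 to 21535 and 23294 to 24060 counts in the 3 lines. It was higher in every library of both resistant lines than in MHCC97L but passed in none of the full comparisons, at 0.86 ± 0.28 in MHCC97L-Src (adjusted p = 0.115) and 0.99 ± 0.25 in MHCC97L-Oxa (adjusted p = 0.127) on the log2 scale. With the correction PLOD1 passed in both lines, at 0.52 (adjusted p = 0.0214) and 0.78 (adjusted p = 0.00402), and was lower in MHCC97L-Src than in MHCC97L-Oxa by edgeR (-0.27, adjusted p = 0.0421). Without MHCC97L replicate 1 it passed in MHCC97L-Oxa (0.87, adjusted p = 0.00135) and not in MHCC97L-Src (0.68, adjusted p = 0.0669).

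LOX and LOXL2 encode lysyl oxidases, which cross-link collagen outside the cell. LOX had 479, 181 and 177 counts in the MHCC97L libraries, 583, 466 and 457 in those of MHCC97L-Src, and 1107, 986 and 827 in those of MHCC97L-Oxa. MHCC97L-Oxa was above all other libraries, and MHCC97L replicate 1 reached into the range of MHCC97L-Src. Between the resistant lines the log2 difference was -0.84 ± 0.16 (adjusted p = 0.0162), and -0.55 after the correction (adjusted p = 0.157). In MHCC97L-Oxa against MHCC97L it was 1.83 ± 0.40 (adjusted p = 0.084), and 2.48 without MHCC97L replicate 1 (adjusted p = 0.000756). LOXL2 had 3934, 5795 and 6240 counts in the MHCC97L libraries, 5190, 5520 and 4785 in those of MHCC97L-Src, and 9700, 10219 and 10282 in those of MHCC97L-Oxa. MHCC97L-Src lay within the range of MHCC97L. The log2 difference between the resistant lines was -0.85 ± 0.12 (adjusted p = 0.0042), and -0.98 after the correction (adjusted p = 0.00015). The summed level of 4 fibroblast and stellate cell markers (COL1A1, COL3A1, DCN and ACTA2) was also lower in MHCC97L-Src, at 78.0 to 97.6 CPM, than in MHCC97L-Oxa, at 147 to 165 CPM, and was 111 to 194 CPM in MHCC97L. DCN differed most between the resistant lines, at 9.605 to 25.37 CPM in MHCC97L-Src and 60.89 to 69.31 in MHCC97L-Oxa. COL1A1 was at 60.22 to 67.1 and 73.33 to 83.19 CPM, and ACTA2 at 8.132 to 9.635 and 12.04 to 14.4. In MHCC97L-Src both COL1A1 and ACTA2 overlapped with MHCC97L. COL3A1 had 1 to 9 counts in every library, and the part of these markers in the result was not tested.

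Of the mitochondrial genes, BNIP3, a receptor of mitophagy in the outer mitochondrial membrane, rose in both resistant lines. BNIP3 (chr10:131966455-131982013, minus strand), whose stretch with CACGTG is printed among the sequences, had 1114, 988 and 793 counts in the MHCC97L libraries, 2333, 2160 and 1783 in those of MHCC97L-Src, and 4114, 3885 and 3623 in those of MHCC97L-Oxa. The 3 lines did not overlap. BNIP3 was 2.37-fold higher in MHCC97L-Src than in MHCC97L (log2 1.24 ± 0.25, adjusted p = 0.0471) and 4.03-fold higher in MHCC97L-Oxa (log2 2.01 ± 0.20, adjusted p = 0.009). Between the resistant lines the log2 difference was -0.77 ± 0.14 (adjusted p = 0.0125). BNIP3L, its close relative, had 182 to 896, 363 to 447 and 593 to 621 counts in MHCC97L, MHCC97L-Src and MHCC97L-Oxa. FAM162A, a HIF-responsive mitochondrial protein, had 442 to 1102, 507 to 692 and 877 to 959 counts. Neither passed in any full comparison.

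Of the 9 other targets, SPAG4 and NDRG1 showed the clearest differences from MHCC97L, and BHLHE40 differed between the resistant lines. SPAG4 (chr20:35615892-35621049, plus strand), a protein of the nuclear envelope, had 48, 55 and 65 counts in the MHCC97L libraries, 310, 378 and 164 in those of MHCC97L-Src, and 553, 473 and 496 in those of MHCC97L-Oxa. It was 5.58-fold higher in MHCC97L-Src (log2 2.48 ± 0.49, adjusted p = 0.0441) and 9.02-fold higher in MHCC97L-Oxa (log2 3.17 ± 0.34, adjusted p = 0.0117). The 3 lines did not overlap. NDRG1, a stress-induced suppressor of metastasis in several cancers, had 3160, 4863 and 4754 counts in the MHCC97L libraries, 12072, 13928 and 8500 in those of MHCC97L-Src, and 14540, 12932 and 13039 in those of MHCC97L-Oxa. Both resistant lines were above MHCC97L in every library, and they overlapped with each other. NDRG1 rose in MHCC97L-Oxa by 1.65 ± 0.25 on the log2 scale (adjusted p = 0.0323), and in MHCC97L-Src it was at 1.56 ± 0.32, just over the threshold (adjusted p = 0.0501).

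BHLHE40 (chr3:4979116-4985323, plus strand), a transcriptional repressor linked to the circadian clock, had 3818, 3566 and 2888 counts in the MHCC97L libraries, 3093, 2884 and 2776 in those of MHCC97L-Src, and 6314, 5521 and 5642 in those of MHCC97L-Oxa. MHCC97L-Oxa was above all other libraries. The log2 difference between the resistant lines was -0.89 ± 0.12 (adjusted p = 0.0022), and -0.90 after the correction (adjusted p = 0.0022). Of the remaining 6 targets none passed in a full comparison. DDIT4, an inhibitor of the kinase mTORC1, had 10992 to 16988, 21370 to 26224 and 32807 to 33662 counts in the 3 lines, which did not overlap. ANKRD37 had 15 to 32, 47 to 61 and 73 to 89 counts, also without overlap. KDM3A, a histone demethylase, had 56 to 701 counts in the MHCC97L libraries, 67 to 107 in those of MHCC97L-Src, and 97 to 146 in those of MHCC97L-Oxa. CITED2, which competes with HIF for its coactivator, had 1681 to 2107, 2461 to 3056 and 2332 to 2457 counts and was the only 1 of the 45 genes above all MHCC97L-Oxa libraries in MHCC97L-Src. MXI1, an antagonist of MYC, had 259 to 605, 339 to 775 and 617 to 921 counts, and VLDLR, a lipoprotein receptor, had 95 to 441, 145 to 193 and 223 to 255.

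Of the 12 glycolytic enzymes, ENO2 alone passed in a full comparison. ENO2 (chr12:6913745-6923698, plus strand), the enolase known from neurons, had 370, 491 and 488 counts in the MHCC97L libraries, 1163, 1456 and 802 in those of MHCC97L-Src, and 1537, 1508 and 1563 in those of MHCC97L-Oxa. Both resistant lines were above MHCC97L in every library. ENO2 was 3.40-fold higher in MHCC97L-Oxa (log2 1.76 ± 0.24, adjusted p = 0.0271), and in MHCC97L-Src its log2 fold change was 1.47 ± 0.35 (adjusted p = 0.0769, and 0.0359 without MHCC97L replicate 1). By FPKM it remained a minor enolase, at 0.495 ± 0.0809% of the sum of ENO1 and ENO2 in MHCC97L, against 1.04 ± 0.163% in MHCC97L-Src and 1.32 ± 0.0516% in the oxaliplatin line. The corresponding share of ALDOC among ALDOA and ALDOC was 5.42 ± 0.242%, 6.92 ± 0.0570% and 6.75 ± 0.312%.

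The median log2 fold change of the 12 enzymes was 0.47 in MHCC97L-Oxa and 0.40 in MHCC97L-Src, with 10 of 12 above 0 in each, and -0.03 between the resistant lines, with 6 of 12 above 0. These medians were smaller without MHCC97L replicate 1, at 0.36 in MHCC97L-Oxa and 0.20 in MHCC97L-Src, beside 0.00 and -0.04 over all genes tested. The GC and length correction gave 0.27 and 0.11, beside -0.08 and -0.05, with 11 and 8 of 12 above 0, and -0.09 between the resistant lines, with 1 of 12 above 0. In MHCC97L-Oxa, 8 of the 12 lay above all MHCC97L libraries (ALDOA, ALDOC, ENO2, GAPDH, PFKL, PFKP, PGK1 and TPI1), beside 19.1% of all genes. In MHCC97L-Src 2 of the 12 did (ALDOC and ENO2), beside 18.3% of all genes, so this count did not stand out. GAPDH, the most abundant of the 45 genes on the FPKM scale, had 4180 to 7042 FPKM in MHCC97L, 6104 to 8862 in MHCC97L-Src and 7170 to 7774 in MHCC97L-Oxa. MHCC97L replicate 1 gave the lowest count of GAPDH, ENO1, TPI1, ALDOA, ALDOC, GPI, PFKL, PFKP, PGK1 and PGAM1 among the 9 libraries. For several of these enzymes, among them GAPDH, ENO1, TPI1, PGK1, ALDOA, PGAM1 and LDHA, near-identical pseudogene copies exist in the genome, so their counts are uncertain. LDHA (chr11:18394388-18408425, plus strand), which turns pyruvate into lactate, had 51043, 27399 and 18255 counts in the MHCC97L libraries, 16073, 8782 and 21506 in those of MHCC97L-Src, and 34592, 25650 and 25131 in those of MHCC97L-Oxa. MHCC97L-Src was below MHCC97L-Oxa in every library, at a log2 difference of -0.80 ± 0.24 (adjusted p = 0.0924). This passed after the GC and length correction (-0.67, adjusted p = 0.0277). Against MHCC97L, LDHA was at -0.96 ± 0.40 in MHCC97L-Src (adjusted p = 0.157) and -0.15 ± 0.35 in MHCC97L-Oxa (adjusted p = 0.8). Without MHCC97L replicate 1 these were -0.50 (adjusted p = 0.367) and 0.35 (adjusted p = 0.323), so the sign in MHCC97L-Oxa depended on that library. With the correction they were -0.35 (adjusted p = 0.336) and 0.31 (adjusted p = 0.38).

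Of the 4 switches of glycolysis 0 passed in a full comparison by edgeR, with 1 in MHCC97L-Oxa, 1 in MHCC97L-Src and 2 between the resistant lines at an unadjusted p under 0.05, and 1 in each by DESeq2's Wald test. The share of all genes at that unadjusted threshold was not computed. PFKFB4, which makes the activator of phosphofructokinase, had 477, 428 and 441 counts in the MHCC97L libraries, 1002, 1264 and 514 in those of MHCC97L-Src, and 1039, 862 and 901 in those of MHCC97L-Oxa. Both resistant lines were above MHCC97L, by 1.20 ± 0.39 (adjusted p = 0.114) and 1.06 ± 0.23 (adjusted p = 0.0808) on the log2 scale. PFKFB4 took 40.5 ± 4.37% of the summed FPKM of PFKFB3 and PFKFB4 in MHCC97L, against 58.3 ± 11.5% in MHCC97L-Src and 59.4 ± 3.68% in the oxaliplatin line. PDK1, a kinase of pyruvate dehydrogenase, had 338, 83 and 114 counts in the MHCC97L libraries, 149, 103 and 143 in those of MHCC97L-Src, and 237, 224 and 223 in those of MHCC97L-Oxa. The resistant lines did not overlap, at a log2 difference of -0.69 ± 0.19 (adjusted p = 0.0717). PDK3, a related kinase, had 238 to 426, 248 to 339 and 419 to 455 counts, and PFKFB3 had 547 to 734, 459 to 553 and 552 to 589.

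Of 10 tested genes of HIF regulation and oxygen sensing, 0 passed in any comparison by edgeR and 0 by DESeq2's Wald test, and at an unadjusted p under 0.05 there were 1 in MHCC97L-Oxa, 1 in MHCC97L-Src and 0 between the resistant lines. Of 7 tested genes of gluconeogenesis 0 passed by edgeR, with 1, 1 and 2 at an unadjusted p under 0.05 and 1, 1 and 0 by DESeq2's Wald test. Of 28 tested further targets of hypoxia, 3 were higher in MHCC97L-Oxa (CA9, ZNF395 and PPFIA4) and 0 lower, and 3 were higher in MHCC97L-Src (CA9, CXCR4 and ZNF395), beside 0.771% and 1.43% of all genes. At an unadjusted p under 0.05, 10 of the 28 were higher and 1 lower in MHCC97L-Oxa, and 9 were higher and 3 lower in MHCC97L-Src. Between the resistant lines 3 were higher and 11 lower in MHCC97L-Src. DESeq2's Wald test called 7 higher and 0 lower in MHCC97L-Oxa, 8 and 3 in MHCC97L-Src, and 0 and 6 between the resistant lines. Over all genes it called 577 higher and 367 lower of 15137, 745 and 1474 of 15167, and 389 and 437 of 14961 in these comparisons. The share of all genes at an unadjusted p under 0.05 alone was not computed, so the unadjusted counts of these lists do not show whether a list stands out. With a log2 fold change over 1 added, 4.63% of all genes were higher and 11.5% lower in MHCC97L-Oxa. These shares were 5.74% and 18.9% in MHCC97L-Src, and 1.49% and 2.52% between the resistant lines. TFRC, the transferrin receptor, was lower in MHCC97L-Src than in MHCC97L-Oxa by edgeR (log2 -0.84 ± 0.19, adjusted p = 0.0385), and it did not pass after the GC and length correction (-0.56, adjusted p = 0.123). CA9, the carbonic anhydrase widely used as a marker of hypoxia, had 111, 201 and 214 counts in the MHCC97L libraries, 4263, 5942 and 2080 in those of MHCC97L-Src, and 9994, 9157 and 10023 in those of MHCC97L-Oxa. The log2 fold change was 4.68 ± 0.52 (adjusted p = 0.0069) and 5.78 ± 0.35 (adjusted p = 0.0018). Of 17 tested further glycolytic genes 1 passed, the hexokinase HKDC1, with 38, 31 and 30 counts in MHCC97L and 0 in each MHCC97L-Src library (adjusted p = 0.0128). A count of 0 allows up to 3 counts. HKDC1 had 9, 3 and 2 counts in MHCC97L-Oxa. Median log2 fold changes of the 17 were -0.55 (MHCC97L-Src) and -0.23 (MHCC97L-Oxa), beside -0.16 and -0.19 over all genes. Unadjusted p was under 0.05 for 4 lower genes and 1 higher in the saracatinib line, and for 3 lower and 0 higher in the oxaliplatin line. DESeq2's Wald test called 3 and 1 in the former, and 1 and 0 in the latter. Between the resistant lines, with 16 tested, edgeR gave 3 and 1 unadjusted, and DESeq2 0 and 1. The leukocyte marker CD68 was at 143 to 146 CPM in MHCC97L-Oxa, 71.8 to 89.4 in MHCC97L-Src and 48.8 to 79.4 in MHCC97L, and 3 endothelial markers summed to 11.9 to 15.6 CPM in MHCC97L-Src, against 2.23 to 2.61 in MHCC97L and 1.32 to 1.80 in MHCC97L-Oxa. Most of that sum was CDH5, at 10.85 to 13.42 CPM in MHCC97L-Src, whereas PECAM1 overlapped between the lines (0.866 to 2.22 CPM in MHCC97L-Src, 0.845 to 1.64 in MHCC97L) and VWF had 0 to 4 counts in every library. The part of these markers in the differences between the lines was not tested.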

How the data were processed

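RNA of 9 libraries, 3 per line, was sequenced by the authors from stranded, poly(A) selected libraries. The submitters' processing notes name Trimmomatic 0.36, HISAT2 2.2.1.0 and the build GRCh38.p12, while the counting program, its strand setting and the annotation release are not given in the sources used here. The authors deposited raw read counts per gene, without normalization, and also FPKM values (fragments scaled to transcript length and library total), whose length and total are not stated. Libraries were grouped by the treatment in their labels.

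Genes were kept by filterByExpr with a minimum count of 10, normalized by TMM and tested on the 6 libraries of each comparison with the quasi-likelihood test of edgeR, with Benjamini-Hochberg adjustment over all genes tested and a threshold of 0.05. CPM used total counts. Standard errors are the log2 fold change over the square root of F. GC content and length, from the longest GENCODE 29 transcript, were found for 19343 of 20030 genes and corrected by natural splines with 5 degrees of freedom each. Floors of 3 counts cover counting error only, since PCR reads are not independent molecules. Values per library are given for genes with an adjusted p under 0.05 in any comparison, for the largest change of each role and for HIF1A and EPAS1. Pathway genes outside the 45 are named at an adjusted p under 0.05. Results for a further target of hypoxia are not reported here. The 45 genes and the lists were chosen with earlier results of these data known. Promoter windows are from RefSeq, and coordinates of genes from GENCODE 29. Other settings were DESeq2's size factors and Wald test, no filter, all libraries in 1 fit, the replicate block, limma-trend on log2(FPKM + 1) and log2(FPKM + 0.1), the correction with and without the block, and leaving out each library. The scripts were tested on simulated counts. The tests used edgeR 4.0.16, DESeq2 1.42.0 and limma 3.58.1 under R 4.3.3, and Python 3.11.15 served for tables with pandas 2.3.3, for correlations with SciPy 1.17.1 and for plots with matplotlib 3.10.9.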

Additional observations from a re-analysis of the deposited data

Results flagged for a closer look

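The effects of the 2 resistances, each measured against MHCC97L, differed for 11 of the 45 genes by edgeR's test of the difference between MHCC97L-Src and MHCC97L-Oxa, which uses none of the MHCC97L libraries. On the log2 scale MHCC97L-Src minus MHCC97L-Oxa was -1.17 for HIF1A and -0.95 for EPAS1. It was -0.55 for VEGFA and -1.24 for ANGPTL4 among the secreted factors. Among the genes of collagen modification it was -0.72 for P4HA1, -1.05 for P4HA2, -1.16 for PLOD2, -0.84 for LOX and -0.85 for LOXL2. It was -0.77 for BNIP3 and -0.89 for BHLHE40. After the GC and length correction HIF1A, P4HA1, PLOD2 and LOX no longer passed. The cause of these differences was not tested.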

How the results depend on the processing

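Of the values of named genes under settings that kept all libraries, 281 stayed on their side of the threshold, 43 came to pass it and 27 no longer passed, and none changed direction. The count of the 45 genes called in MHCC97L-Src against MHCC97L (4, and 256 of all genes) became 10 (2219) by DESeq2's Wald test, 8 (702) without a filter, 15 (1956) with all libraries in 1 fit and 13 (1279) with the correction for GC content and length. In MHCC97L-Oxa against MHCC97L (8 and 115) it became 16 (944), with all libraries 14 (495), with the correction 23 (1555), and for all genes 242 and 228 by limma-trend on log2(FPKM + 1) and log2(FPKM + 0.1). Between the resistant lines (11 and 556) all libraries gave 3 (86), namely BHLHE40, EPAS1 and P4HA2, and the correction gave 1153 of all genes. Leaving out 1 library gave 0 to 11 of the 45 and 22 to 3419 of all genes for MHCC97L-Src, 0 to 29 and 2 to 2705 for MHCC97L-Oxa, and 5 (without MHCC97L-Oxa replicate 2) to 21 (without MHCC97L-Src replicate 2) and 167 to 1617 between the resistant lines. A group left with 2 libraries shares the spread of the other. With 1 library left out, EPAS1 in MHCC97L-Oxa ranged from -0.15 to 0.13, the latter without MHCC97L replicate 2 (adjusted p = 0.723 by edgeR), and of the other values of named genes 151 stayed on their side of the threshold, 16 came to pass it and 66 no longer passed.

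Same-numbered deviations from the line means correlated between -0.629 and 0.414. With 3 libraries per line the deviations depend on one another, so this cannot settle whether replicate numbers mark a shared batch. With the replicate block the calls were 8 of the 45 (988 of all genes) in MHCC97L-Src, 7 (92) in MHCC97L-Oxa and 11 (406) between the resistant lines, and the block with the correction gave 4 (224), 20 (609) and 8 (469). Where a number moved, the cause was not tested.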
